A study of Bos taurus with 6 samples.

Results

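The cytosolic HSP70 and HSP90 chaperones and their main helpers were followed in bovine blastocysts that had spent the days before collection in different maternal tracts. The 10 genes HSPA14, HSPA4, HSPA8, HSPA2, HSPA1A, HSPH1, HSP90AA1, HSP90AB1, DNAJA1 and DNAJB1 were taken by their symbol in the annotation of the array, and every probe set carrying one of these symbols was kept. That gave 10 of the 9155 genes with a symbol and 22 of the 24016 probe sets tested, with 4 genes on a single probe set and 6 probe sets for HSPA1A. The rule uses no measured value, but the genes were chosen with earlier results of these data known.

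The superovulated group (3 arrays) held day 7 blastocysts that developed in Simmental heifers which had been synchronized, superovulated and artificially inseminated. The synchronized group (3 arrays) held day 7 blastocysts from donors treated in the same way, whose embryos were flushed by endoscope on day 2 at the 2-cell stage and placed in recipients that were synchronized but not superovulated. There were 18 superovulated heifers, of which 9 were flushed on day 2. Hormonal stimulation of the donor, and therefore of the oocyte, is thus common to all 6 arrays. Flushing and transfer occurred in the synchronized group alone, so that the tract and the handling cannot be told apart. How many embryos lie behind an array, and whether the arrays of a group come from separate animals, is unknown here, so the p-values describe an array-to-array spread that may be purely technical. The comparison asks how a superovulated reproductive tract relates to the transcripts of the embryo developing in it.

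HSP70 proteins hold exposed hydrophobic stretches of unfolded proteins in a cycle driven by ATP. J-proteins such as DNAJA1 and DNAJB1 bring clients to HSP70 and start ATP hydrolysis, and large relatives of HSP70 such as HSPA4 and HSPH1 act as nucleotide exchange factors that restart the cycle. HSP90 receives partly folded kinases and steroid receptors from HSP70 together with a set of cochaperones. Some genes of the family, HSPA8 and HSP90AB1 among them, are active in unstressed cells, whereas HSPA1A, HSPH1, DNAJB1 and HSP90AA1 are induced by heat shock factor. In the mouse, inducible HSP70 is among the earliest products of the embryonic genome.

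All values are GCRMA expression values as deposited, on a log2 scale, and all differences are superovulated minus synchronized on that scale. Group values are mean ± SD with n = 3. A probe set passed at an adjusted p below 0.05 by limma over all tested probe sets, and it is called bright where its mean over the 6 arrays was above log2 4. A probe set that is not bright is called dim. GCRMA compresses values near background, which makes the size of a difference uncertain where one group lies there. Levels are compared between groups within a probe set, never between probe sets.

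Facts about the whole arrays touch every value here. Between 1457 and 1894 probe sets were above log2 4 on a superovulated array and between 973 and 1850 on a synchronized array, the upper figure being that of synchronized array 2. Arrays correlated across probe sets at r = 0.928 to 0.974 within the superovulated group, 0.752 to 0.899 within the synchronized group and 0.758 to 0.892 between the groups. The 1406 bright probe sets were shifted as a body, with a median difference of 0.59 and 71.8% of differences above 0. The spiked hybridization controls ran the other way and also separated the groups, at 12.3 to 12.35 on superovulated and 12.56 to 13.29 on synchronized arrays, and their part in the results was not tested. The control for the 3′ end of the GAPDH transcript read 8.67 to 9.14 on superovulated and 7.2 to 8.35 on synchronized arrays, the control for its middle 3.99 to 4.2 and 3.67 to 3.94, and the control for its 5′ end 2.62 to 3.03 and 2.6 to 2.63. Of the embryo's markers, KRT18 and EZR of the trophectoderm were bright, whereas KRT8 and SOX2 read 2.27 to 2.44 on all arrays and POU5F1 read 3.24 to 3.54 on superovulated and 2.4 to 2.73 on synchronized arrays. The blood markers HBB, HBA, PTPRC and CD3E had 0 bright probe sets of 4 measured.

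Of the 10 chaperone genes, HSPA14 and HSPA4 rose in blastocysts from superovulated heifers, and none fell. HSPA14, an HSP70 relative that works at the ribosome, was 16.6-fold higher, and HSPA4, a nucleotide exchange factor of HSP70, was 5.29-fold higher, each on 1 of its 2 probe sets. HSPA8, the constitutive HSP70 of the cytosol, was 7.98-fold higher with no overlap between the groups, but did not pass. Over all bright probe sets, 7.82% passed as higher and 42.5% had every superovulated array above every synchronized array. The HSPA14 and HSPA4 calls were lost after a second quantile normalization and in most removals of 1 array. The inducible genes HSPA1A, HSPH1 and HSP90AA1 had a bright probe set each whose groups overlapped. The remaining 4 genes, HSPA2, HSP90AB1, DNAJA1 and DNAJB1, had no bright probe set. In arrays of whole embryos, fewer cells of a type and less RNA per cell cannot be told apart.

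Among the embryo's own markers only KRT18 passed (difference 3.89, adjusted p = 0.041 by limma). EZR missed the threshold (2.18, adjusted p = 0.0602), as did POU5F1 (0.81, adjusted p = 0.0886), and KRT8 and SOX2 differed by -0.01 each. The mean of the 3 trophectoderm markers measured, of which 2 were bright, ran from 5.47 to 5.82 over superovulated arrays and from 3.33 to 3.99 over synchronized arrays. That of the 2 inner cell mass markers, both dim, ran from 2.82 to 2.99 and from 2.42 to 2.56. That of the 3 oviduct markers ran from 3.35 to 3.56 and from 2.52 to 2.73, through the complement gene C3 (difference 2.56, adjusted p = 0.0373 by limma), while the defining oviduct gene OVGP1 stayed at 2.19 to 2.26 on all arrays. The part of any of these in the chaperone values was not tested.

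In counts, 2 of the 22 probe sets were higher and 0 lower at an adjusted p below 0.05 by limma. An unadjusted p below 0.05 was found for 4, among them the dim HSP90AA1 probe set at a difference of 0.26. The share of all probe sets with such an unadjusted p was not counted. This count and those of the lists below therefore have no background rate beside them. Over all tested probe sets, 0.716% passed, 0.695% as higher and 0.0208% as lower. Both that passed were among the 6 bright chaperone probe sets, and 7.82% of all bright probe sets passed as higher. With an adjusted p below 0.3 and at least a 2-fold difference, 3 of the 22 were called, HSPA8 being the third, against 1.9% of all probe sets. All 6 bright chaperone probe sets had differences above 0, with a median of 1.81. A probe set can be bright through the group in which it is high, and the 6 are therefore not all members: over the 22 the median difference was 0.09, with 13 above 0, beside -0.02 over all tested probe sets.

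**Figure D1:**
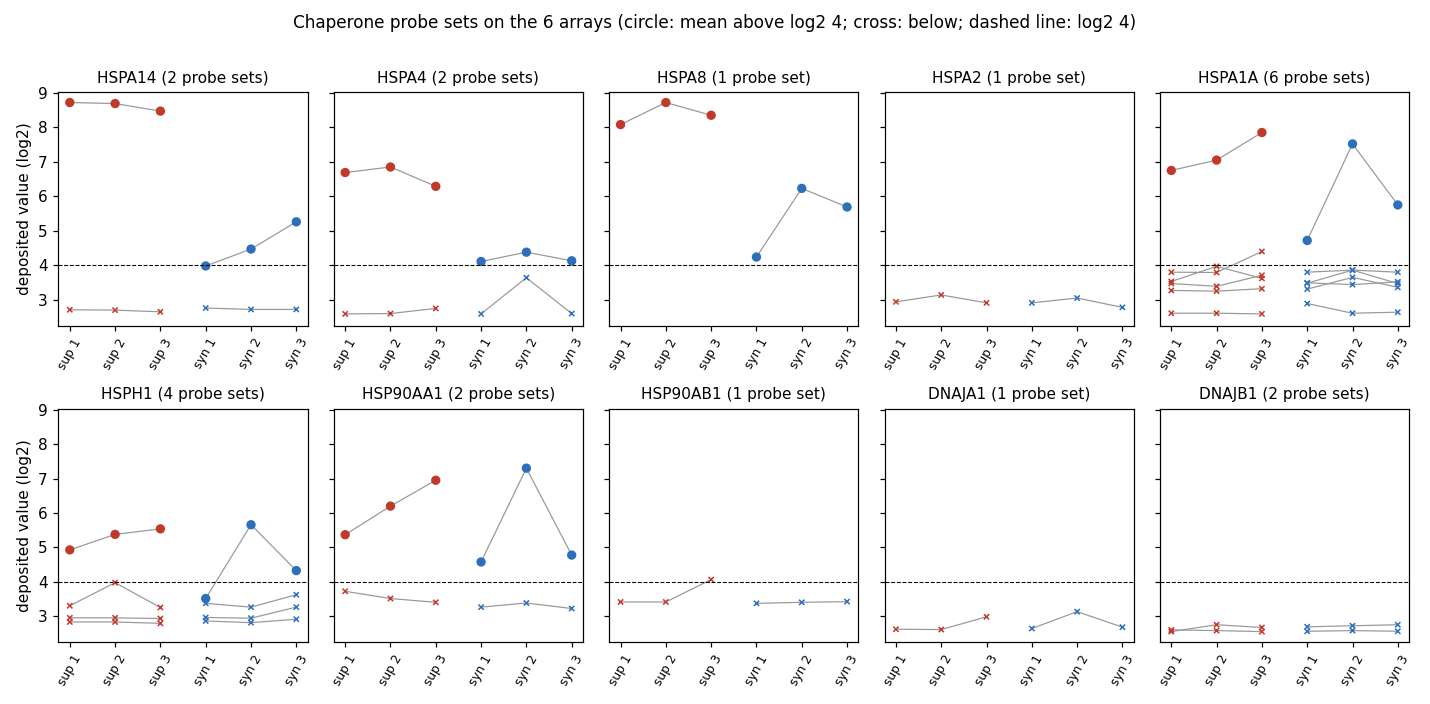
Deposited log2 value (vertical axis) of each of the 22 probe sets on superovulated arrays 1 to 3 (sup, red) and synchronized arrays 1 to 3 (syn, blue), in 1 panel per gene. Circles mark probe sets with a mean above log2 4, crosses the others, the dashed line is log2 4, and thin lines join the values of 1 probe set without implying an order of arrays. HSPA14, HSPA4 and HSPA8 have 1 probe set each whose groups stand apart, while HSPA1A, HSPH1 and HSP90AA1 have 1 probe set each on which synchronized array 2 reads as high as the superovulated arrays.

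HSPA14 binds the ribosome together with the J-protein DNAJC2 and receives nascent chains there. The bright probe set of HSPA14 (gene ID 534751) read 8.72, 8.69 and 8.47 on superovulated arrays against 3.98, 4.47 and 5.26 on synchronized arrays. The superovulated arrays lay within a narrow band far above the highest synchronized array, number 3. The means were 8.63 ± 0.14 and 4.57 ± 0.65, a difference of 4.06 (95% interval 3.17 to 4.94, adjusted p = 0.0287 by limma). Only 5 probe sets of the 24016 tested had a larger difference. The dim HSPA14 probe set stayed at 2.71, 2.7 and 2.65 on superovulated arrays and 2.76, 2.72 and 2.72 on synchronized arrays. It differed by -0.05. No probe set carried DNAJC2 as its only symbol, so that gene was not measured.

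HSPA4 frees ADP from HSP70 so that a bound client can be released. The bright probe set of HSPA4 (gene ID 536558) read 6.69, 6.85 and 6.29 on superovulated arrays and 4.11, 4.38 and 4.13 on synchronized arrays. All synchronized arrays sat just above log2 4 and close to each other, at 4.21 ± 0.15 beside 6.61 ± 0.29 in the superovulated group. The difference was 2.40 (95% interval 1.97 to 2.84, adjusted p = 0.019 by limma). Its dim probe set read 2.59, 2.6 and 2.75 on superovulated arrays against 2.59, 3.64 and 2.6 on synchronized arrays, with synchronized array 2 the only one to leave the floor. Each HSPA14 and HSPA4 call therefore rests on 1 probe set. When each gene was represented by the mean of its probe sets, HSPA14 passed with a difference of 2.00 (adjusted p = 0.016 by limma) and HSPA4 did not, at 1.05 (adjusted p = 0.105), where 1.89% of genes passed as higher.

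Neither call held under most removals of 1 array, although the differences moved little. HSPA14 passed only without synchronized array 3 (adjusted p = 0.0216 by limma), and lay between 0.0533 without synchronized array 1 and 0.113 without superovulated array 2 for the other 5 removals, with differences of 3.76 to 4.4 over all 6. HSPA4 passed without superovulated array 3 (0.0297) or synchronized array 2 (0.0481) and lay between 0.0646 without synchronized array 1 and 0.086 without synchronized array 3 otherwise, with differences of 2.28 to 2.56.

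HSPA8 folds new proteins and uncoats clathrin vesicles in unstressed cells. The only probe set of HSPA8 (gene ID 281831) was bright and read 8.08, 8.72 and 8.35 on superovulated arrays and 4.24, 6.23 and 5.69 on synchronized arrays. The groups did not overlap, but the synchronized arrays spread over about as wide a range as the gap to the superovulated ones. The means were 8.38 ± 0.32 and 5.39 ± 1.03, a difference of 3.0 (95% interval 1.56 to 4.44) with adjusted p = 0.161 by limma. Tested among the bright probe sets alone, where 29.4% passed as higher, HSPA8 passed as well (adjusted p = 0.0111), together with HSPA14 and HSPA4 (0.00439 each).

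The groups stood apart in 5 of the 22 probe sets with the superovulated arrays above and in 1 with them below, where 5.42% and 7.89% of all tested probe sets did so. Among the bright ones it was 3 of 6, those of HSPA14, HSPA4 and HSPA8, beside 42.5% of all bright probe sets. A lack of overlap in this direction was therefore common among bright probe sets as a whole. The other 3 of the 6 were dim probe sets, with differences of 0.26 for HSP90AA1, 0.22 for HSPA1A and -0.05 for HSPA14.

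**Figure D2:**
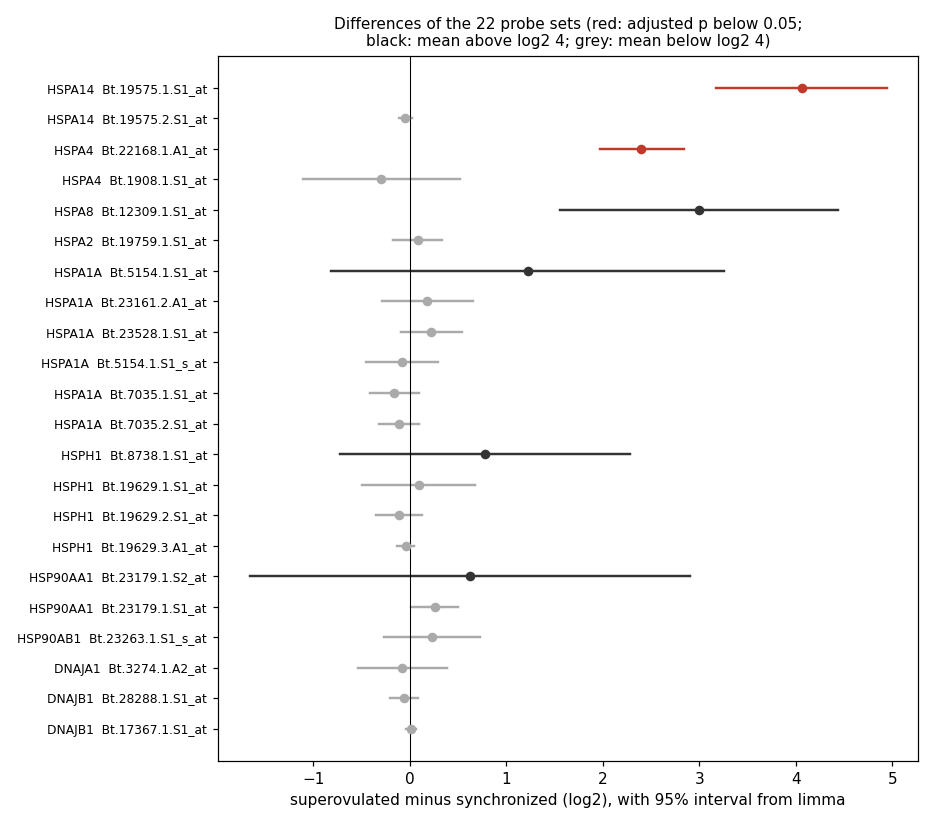
Superovulated minus synchronized difference (log2, horizontal axis) of the 22 probe sets with its 95% interval from limma; red marks an adjusted p below 0.05, black a bright probe set that did not pass, grey a probe set with a mean below log2 4. HSPA14 at 4.06 and HSPA4 at 2.40 passed, HSPA8 lies at 3.0 with a wider interval, and the grey points lie between -0.3 and 0.26.

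HSPA1A is the major stress-inducible HSP70. Its bright probe set (gene ID 281825) read 6.75, 7.05 and 7.85 on superovulated arrays and 4.72, 7.52 and 5.75 on synchronized arrays. Synchronized array 2 fell inside the superovulated range while the other synchronized arrays were below it. The means were 7.22 ± 0.57 and 6.0 ± 1.42, and the difference of 1.22 had a 95% interval of -0.82 to 3.26 (adjusted p = 0.636 by limma). The other 5 HSPA1A probe sets had means below log2 4 and read 2.59 to 4.4, with differences between -0.16 and 0.22. The bright probe set is annotated to a different gene identifier than 4 of these 5, and that identifier was not matched in the gene table used here, so which copy it measures is unsure. The remaining 1 of the 5 has the same identifier and target transcript as the bright one. It nevertheless read 3.39 to 3.86, with a difference of -0.08. The reason for this disagreement was not tested. HSPA1A has a near-identical neighbour copy in mammals, and these probe sets may not separate the copies.

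HSPH1, the inducible exchange factor also known as HSP105, read 4.93, 5.38 and 5.54 on superovulated arrays and 3.52, 5.66 and 4.33 on synchronized arrays with its bright probe set (gene ID 507165). Synchronized array 2 was the highest of all 6 and synchronized array 1 the lowest. The means were 5.28 ± 0.32 and 4.50 ± 1.08, and the difference of 0.78 (95% interval -0.72 to 2.28) did not pass (adjusted p = 0.636 by limma). The other 3 HSPH1 probe sets read 2.8 to 3.98, with differences from -0.11 to 0.09.

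HSP90AA1, the inducible HSP90, read 5.37, 6.2 and 6.95 on superovulated arrays against 4.58, 7.3 and 4.78 on synchronized arrays with its bright probe set (gene ID 281832). Again synchronized array 2 was the highest of all, and superovulated array 3 came next. The means were 6.17 ± 0.79 and 5.55 ± 1.52, with a difference of 0.62 (95% interval -1.66 to 2.9, adjusted p = 0.706 by limma), whose sign turned to -0.09 after a second quantile normalization and to -0.07 with arrays centred on bright probe sets. Removal of 1 array moved the difference from 0.13 (without synchronized array 1) to 1.49 (without synchronized array 2) for HSP90AA1, and between the same removals from 0.29 to 1.36 for HSPH1 and from 0.58 to 1.98 for HSPA1A, none passing. The second HSP90AA1 probe set was dim, at 3.55 ± 0.16 and 3.30 ± 0.08.

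Synchronized array 2 thus divided the bright chaperone probe sets. It lay below all superovulated arrays for HSPA14, HSPA4 and HSPA8, by 4.16, 2.23 and 2.15 from the superovulated mean, and within or above their range for HSPA1A, HSPH1 and HSP90AA1, which it exceeded in the mean by 0.3, 0.38 and 1.13. Of all 1406 bright probe sets, 49.6% were below the superovulated range on this array, 19.4% within it and 31% above it, so the even division of the chaperones was that of bright probe sets in general. Synchronized arrays 1 and 3 were below the superovulated range for all 6, compared with 71.6% and 60.5% of bright probe sets. Across all probe sets, the deviations of superovulated array 3 and synchronized array 2 from their group means correlated at 0.688.

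Markers of cumulus and granulosa cells, which surround the oocyte, had their highest mean of each group on these arrays, but not every marker followed. TNFAIP6, of the cumulus matrix, had values of 3.05, 2.99 and 7.38 on superovulated arrays and 4.25, 8.47 and 5.96 on synchronized arrays, so it was highest on synchronized array 2 and superovulated array 3 of their groups. PTX3 (3.87 on superovulated array 3, 5.21 on synchronized array 2) and INHBA (2.84 and 3.83) were also highest of their groups on these arrays, and both were dim by their mean. HAS2 ran the other way, lowest in each group on the same arrays (3.65 and 3.44), COL1A2 was lowest of its group on superovulated array 3 and highest on synchronized array 2 (3.6 and 3.06), and STAR was high on synchronized array 2 (3.39) but not on superovulated array 3 (3.04). Of the 6 markers of this list, 1 was bright, 3 exceeded log2 4 on some array, and the dim COL1A2 rose (difference 0.66, adjusted p = 0.0316 by limma). Their mean ran from 3.19 to 4.06 over superovulated arrays, with the highest on array 3. Over synchronized arrays it ran from 3.27 to 4.57, with the highest on array 2. The part of these cells in the values of HSPA1A, HSPH1 and HSP90AA1 was not tested. Without superovulated array 3 and synchronized array 2 these differed by 1.67, 1.23 and 1.10, and none passed (adjusted p = 0.473, 0.485 and 0.485 by limma). The same removal left HSPA14 at 4.08 (adjusted p = 0.258) and HSPA4 at 2.65 (0.0911), with 0 probe sets higher in the whole table.

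**Figure D3:**
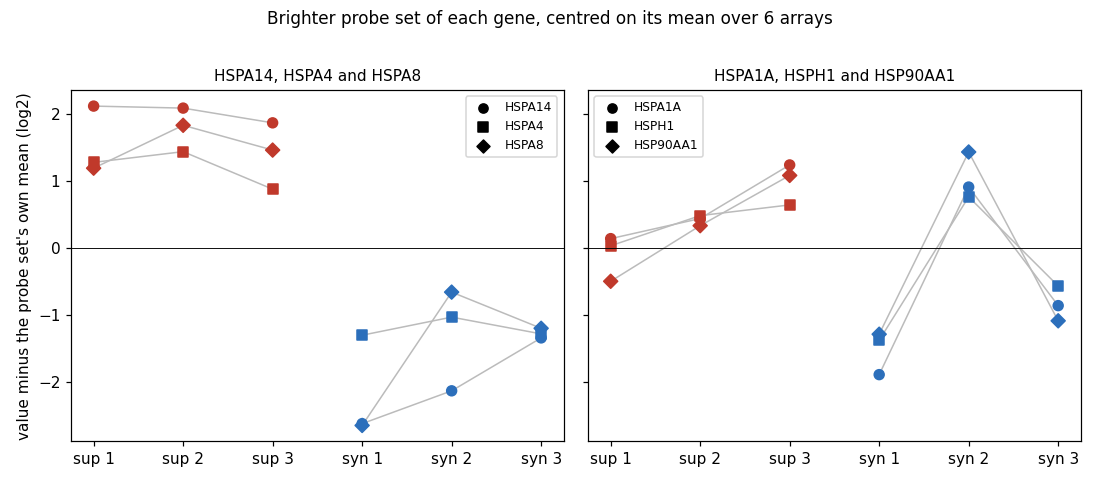
Value of the brightest probe set of 6 chaperone genes minus its own mean over the 6 arrays (log2, vertical axis) on superovulated arrays 1 to 3 (sup, red) and synchronized arrays 1 to 3 (syn, blue); symbols mark genes. On the left HSPA14, HSPA4 and HSPA8 separate the groups, and on the right synchronized array 2 stands level with or above the superovulated arrays for HSPA1A, HSPH1 and HSP90AA1.

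The other 4 genes were dim on every probe set. HSPA2, an HSP70 best known from male germ cells, read between 2.78 and 3.14 on all arrays. HSP90AB1, the constitutive HSP90, read 3.42, 3.42 and 4.07 on superovulated arrays and 3.38, 3.41 and 3.43 on synchronized arrays, on a probe set whose name marks probes shared by more than 1 transcript. Superovulated array 3 stood alone above log2 4 there. The J-proteins DNAJA1 and DNAJB1 read 2.62 to 3.14 and 2.56 to 2.76. Their differences lay between -0.08 for DNAJA1 and 0.23 for HSP90AB1, none passing. Over all 16 dim chaperone probe sets the values were 2.56 to 4.4, the differences -0.3 to 0.26, and the lowest adjusted p was 0.636 by limma. A near-background reading on 1 or 2 probe sets does not show that these transcripts were absent.

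A set of 57 measured genes from the same folding network held 2 genes that rose and 0 that fell, and both of these belong to mitochondria. Both, HSPE1 and HSPA9, were among the 15 of the 57 that were bright, HSPA9 only through its superovulated arrays. Their calls were not followed under other scalings, the replicate block or removals of arrays. Of all tested probe sets 0.695% passed as higher, and of all bright ones 7.82%. Among 13 cochaperones of HSP90, 0 passed by limma, 2 had an unadjusted p below 0.05, and the median difference was 0.02. PTGES3, the p23 protein that stabilizes closed HSP90, read 8.04, 8.12 and 7.98 on superovulated arrays against 4.41, 3.4 and 5.54 on synchronized arrays, a difference of 3.60 that missed the threshold (adjusted p = 0.0988 by limma). Its groups did not overlap, superovulated above, as for 42.5% of all bright probe sets, and synchronized array 2 was the lowest of the 6. NUDC, a cochaperone that also acts in nuclear migration, differed by 1.28 (adjusted p = 0.316).

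Among 14 J-proteins and cofactors of HSP70, 0 passed by limma, 0 had an unadjusted p below 0.05, and the median difference was 0.01. ST13, which stabilizes the ADP state of HSP70, read 6.63, 6.76 and 7.29 on superovulated arrays and 5.07, 6.86 and 4.89 on synchronized arrays (difference 1.29, adjusted p = 0.636 by limma). Here too synchronized array 2 read within the superovulated range. The second ST13 probe set differed by -0.65. BAG4, an exchange factor, was dim and differed by 0.42 (adjusted p = 0.636).

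The chaperonin TRiC and prefoldin, which fold actin and tubulin, had 12 measured genes, of which 0 passed by limma and 4 had an unadjusted p below 0.05. Whether 4 is unusual cannot be said, since the share of all probe sets with such a p was not counted. Their median difference was 0.55, beside -0.02 over all tested and 0.59 over all bright probe sets. Of the 12 differences 11 were above 0, and 4 of the 12 genes were bright. The share above 0 was 71.8% over all bright probe sets and was not counted over all tested ones, so the 11 have no like background. The TRiC subunit gene CCT8 read 8.5, 8.79 and 8.4 on superovulated arrays against 4.3, 7.07 and 6.45 on synchronized arrays (difference 2.62, adjusted p = 0.483 by limma). CCT3 differed by 1.40 (adjusted p = 0.177), also without overlap of the groups. Such a lack of overlap, superovulated above, held for 42.5% of all bright probe sets.

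Among 10 heat shock factors and small heat shock proteins, 0 passed by limma, 1 had an unadjusted p below 0.05, and the median difference was -0.01. HSPB1, a small heat shock protein that holds unfolding proteins, was the bright one, at 7.18, 7.25 and 7.21 on superovulated arrays against 4.58, 3.71 and 5.69 on synchronized arrays. It differed by 2.55 (adjusted p = 0.196 by limma), and its second probe set by 2.05. The heat shock factor genes HSF1 and HSF2 read 2.52 to 2.79 on all arrays. CRYAB, the other small heat shock gene with the smallest p, was dim and differed by -0.13.

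Relatives in the organelles were measured by 8 genes, of which 5 were bright and 2 rose, against the 7.82% of all bright probe sets that passed as higher. HSPE1, the cochaperonin of the mitochondrial matrix, read 7.85, 7.85 and 7.99 on superovulated arrays against 3.92, 5.22 and 4.72 on synchronized arrays (difference 3.28, adjusted p = 0.0415 by limma). HSPA9, the mitochondrial HSP70, read 4.87, 4.92 and 4.52 on superovulated arrays against 3.13, 3.26 and 3.43 on synchronized arrays (difference 1.5, adjusted p = 0.0328), while its other probe set differed by -0.35. With a mean of 4.02, HSPA9 counted as bright only through its superovulated arrays, which limits the comparison with the 7.82%. The median over the 8 was 0.15. A difference between the cytosolic and the organelle genes was not tested.

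**Figure D4:**
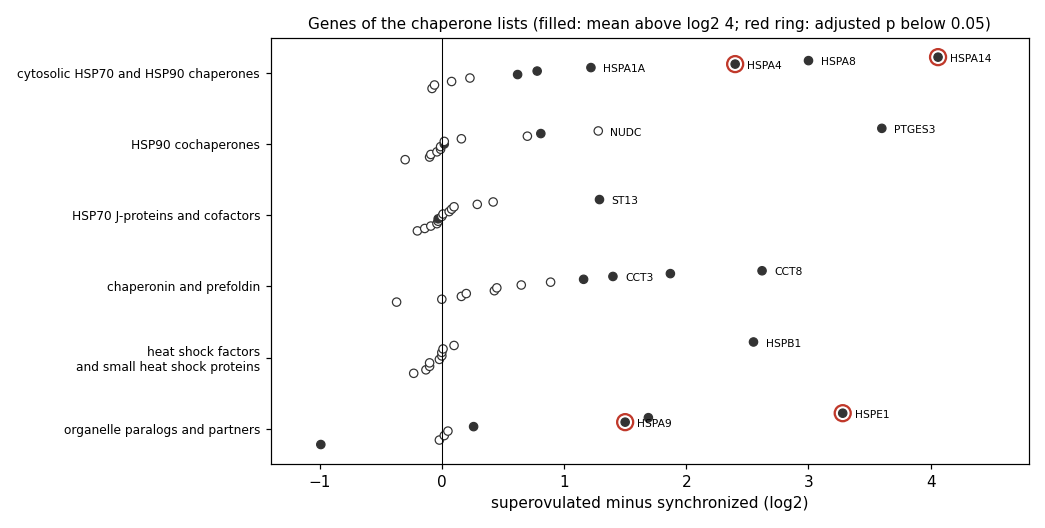
Superovulated minus synchronized difference (log2, horizontal axis) of each measured gene, taken from its brightest probe set, in the 10 cytosolic chaperones and 5 related lists (rows); filled points have a mean above log2 4, and red rings mark an adjusted p below 0.05. The rings are on HSPA14, HSPA4, HSPE1 and HSPA9, and most open points lie near 0.

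The genes with profiles most like those of the chaperones were named by the smallest root mean square difference over the 6 arrays, each profile being centred on its own mean, among 965 bright probe sets with another symbol. For HSPA14 they were KRT18 (0.17), ZBTB18 (0.21), CPSF3 (0.32), NAA40 (0.34) and HNRNPUL1 (0.44), where the median candidate differed by 1.8. KRT18, a keratin of the trophectoderm, read 7.96, 8.11 and 7.74 on superovulated arrays and 3.55, 3.68 and 4.9 on synchronized arrays. For HSPA8 they were NAP1L1 (0.15), RPL13A (0.18), RAB11A (0.19), RPS24 (0.23) and BIRC6 (0.24), where the median candidate differed by 1.29. NAP1L1, a histone chaperone, read 7.53, 7.8 and 7.35 on superovulated arrays and 3.3, 5.36 and 4.7 on synchronized arrays, the same order of synchronized arrays as HSPA8.

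The scale between arrays affected these results. Centring each array on its bright probe sets moved the median difference of all probe sets to -0.72. Over the whole table it gave 211 higher and 318 lower calls, against 167 and 5 with the values as deposited, so that the share of higher calls was 39.9% against 97.1% through added lower calls. The centring takes the same amount from every difference. It put HSPA14 at 3.36, HSPA8 at 2.30, HSPA4 at 1.71, HSPA1A at 0.53, HSPH1 at 0.09 and HSP90AA1 at -0.07. HSPA8 then had an adjusted p of 6.07e-07 by limma, but adjusted p-values under this centring followed the size of the difference almost alone. The bright HSPA1A probe set at 0.53 had 0.184, and a dim HSPA1A probe set at -0.52 had 0.194. Such p-values, and the calls counted with them, say little about the spread of a single probe set. A second quantile normalization left HSPA14 at 3.25 and HSPA4 at 1.73, both with adjusted p = 0.164 by limma, and HSPA8 at 2.18 (adjusted p = 0.232).

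**Figure D5:**
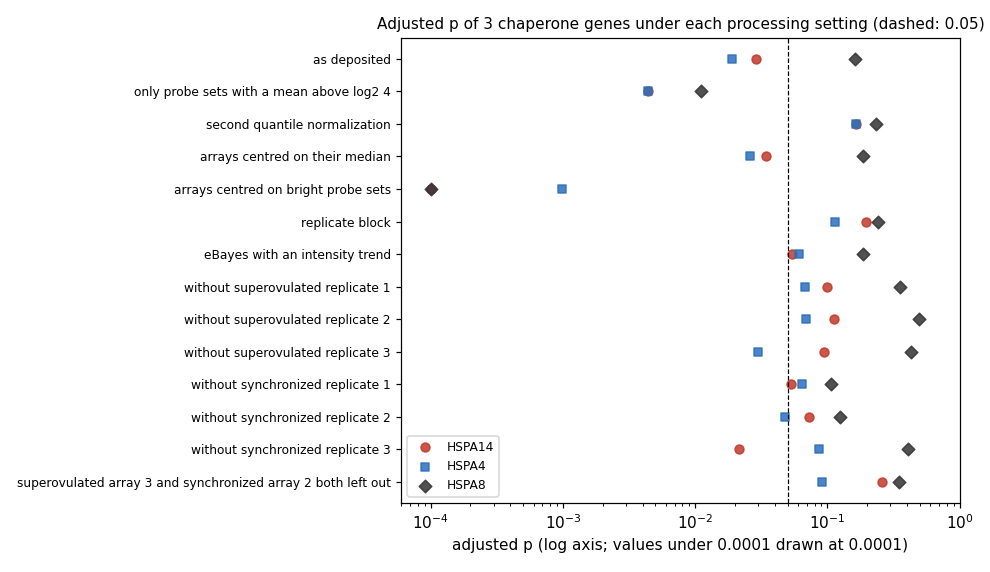
Adjusted p by limma (horizontal log axis, dashed line at 0.05) of the brightest probe sets of HSPA14, HSPA4 and HSPA8 under the values as deposited (top row) and each alternative setting. With the values as deposited HSPA14 (0.0287) and HSPA4 (0.019) lie left of the line and HSPA8 (0.161) right of it. Without superovulated array 3 or synchronized array 2 only HSPA4 lies left of it, and without synchronized array 3 only HSPA14. In the other removals of arrays all 3 lie right of it.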

How the data were processed

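The deposited table holds log2 expression values by the authors, 1 for each of 24128 probe sets of the Affymetrix GeneChip Bovine Genome Array on each of 6 arrays, made with GCRMA per the submitters' processing notes (version not given in the sources used here). Whether all arrays were normalized together, and the scanner intensities behind them, were not analysed here. Biotin was incorporated in a second in vitro transcription, per the labels' protocols. After 112 control probe sets were set aside, 24016 were tested without further scaling or filter in limma 3.58.1 under R 4.3.3, with functions lmFit and eBayes, a term for group alone, two-sided tests and Benjamini-Hochberg adjustment over all of them. Symbols came from the platform annotation held by GEO: 13292 probe sets had 1, 86 several and 10638 none. Of 11 gene identifiers behind the chaperone probe sets, 10 were in the ARS-UCD2.0 gene table, all with the same symbol. The unmatched one, 281825, is that of 2 HSPA1A probe sets, the bright one among them. The chaperone genes and the related lists were chosen with earlier results of these data known. All chaperone probe sets are reported; in each list the genes that passed are named, filled up to 2 by smallest p; profiles of like shape were sought for HSPA14 and for HSPA8, picked by the rule as the member with the highest mean, which is a choice of profile and not a comparison of levels. KRT8, SOX2, POU5F1, EZR, TNFAIP6, PTX3, HAS2, INHBA, STAR, COL1A2, C3, OVGP1, HSF1, HSF2 and the blood markers are named from marker or gene lists outside that rule.

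The number of arrays, 3 per group, limits the precision. In simulated data, noise was drawn independently for each of 24016 probe sets, with its SD pooled over both groups. Over 5 runs the fit recovered 29.6% of 100 differences of 2 log2 units and 63.6% of 100 differences of 4. False calls numbered 5 on average. The real arrays shared deviations across probe sets and varied more within the synchronized group, so these rates do not describe the errors of this comparison. Alternatives were a filter on dim probe sets, 3 scalings, an intensity trend, a looser threshold, a replicate block and the removal of arrays. The deviations of same-numbered arrays from their group means correlated at r = 0.542, -0.399 and -0.405. With 3 arrays per group this cannot show whether the numbers pair the samples. No sequences or coordinates are printed, since none were held for these genes.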

Additional observations from a re-analysis of the deposited data

How the results depend on the processing

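With 3 arrays per group, few calls on these chaperones were stable. The 2 higher chaperone probe sets became 0 after a second quantile normalization, with a replicate block, with an intensity trend and without superovulated array 3 and synchronized array 2, and 0 to 1 without single arrays. They were 3 among bright probe sets, with centring on bright probe sets and at the looser threshold, and 2 with median centring; lower ones numbered 0 throughout. With the mean of all probe sets per gene, 1 gene passed in place of 2. Whether the replicate numbers pair the arrays is unknown here. With the replicate block 0 probe sets passed in the whole table in place of 167 higher and 5 lower. Over all probe sets the higher calls were 211 with centring on bright probe sets, 146 with median centring, 413 among bright probe sets, 27 after quantile normalization, 49 with a trend, 431 at the looser threshold and 26 to 96 without single arrays, and 0 without superovulated array 3 and synchronized array 2. The lower calls were 28 among bright probe sets, 1 after quantile normalization, 1 with a trend, 25 at the looser threshold, 0 to 41 without single arrays, 1 without both arrays, 3 with median centring and 318 with centring on bright probe sets.

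The signs of HSPA14, HSPA4, HSPA8, HSPA1A and HSPH1 on their bright probe sets held in every alternative run, and that of HSP90AA1 turned to -0.09 and -0.07 under the scalings named above. The removal of superovulated array 3 and synchronized array 2 together was chosen after seeing the data. Among dim probe sets, centring on bright probe sets gave -0.61 for HSPA2, -0.52 and -0.47 for HSPA1A, -0.6 for HSPH1, -0.44 for HSP90AA1, -0.46 for HSP90AB1 and -0.68 for DNAJB1. The median of all probe sets was then -0.72. Others turned by small amounts. Without single arrays, 1 HSPA1A probe set ranged from -0.03 (without superovulated array 3) to 0.28 and another from -0.17 to 0.05, an HSPH1 probe set from -0.14 to 0.22, DNAJA1 from -0.2 to 0.08, DNAJB1 from 0 to 0.02, and the dim HSPA4 probe set from -0.47 to 0.05 (without synchronized array 2). The first HSPA1A probe set was also at -0.03 after quantile normalization and at 0 without both arrays. The cause of these changes was not tested. Readings near background limit what can be said of 16 of the 22 probe sets.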
